A study of Mus musculus with 6 samples.

Results

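The 7 genes described here encode the potassium secretion machinery of the stria vascularis, namely *Kcnq1*, *Kcne1*, *Kcnj10*, *Slc12a2*, *Atp1b1*, *Atp1b2* and *Bsnd*. They were picked by symbol from their known roles, with no threshold on a measured value but with earlier results of these data known. They make up 7 of the 14865 genes in the deposited table. The libraries came from cochlear ducts of C57BL/6 mice (C57BL/6J in the study's methods) at postnatal day 8, with 3 *Gfi1*+/+ libraries (each from 2 cochleae of 1 mouse) and 3 *Gfi1*cre/+ libraries (each from RNA pooled over 6 cochleae of 3 mice). In *Gfi1*cre/+ mice 1 copy of *Gfi1* is replaced by Cre recombinase under control of the *Gfi1* locus, and the *Gfi1*+/+ controls carry no Cre. In the inner ear the study found Cre activity in hair cells (HCs) and in immune cells. The comparison of genotypes addresses whether expression in the cochlear duct differs before HCs are lost. For the 7 genes it showed small differences. The levels of 6 genes were higher on average in *Gfi1*cre/+ by between 3.84% (*Slc12a2*) and 9.40% (*Kcne1*), that of *Kcnj10* differed by -1.63%, and no gene passed the threshold after adjustment for multiple testing.

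The stria vascularis lines the lateral wall of the cochlear duct and secretes the potassium of the endolymph, the fluid that bathes the hair bundles, while maintaining the endocochlear potential that drives current through HCs. Potassium leaves the marginal cells, the epithelial layer facing the endolymph, through an apical channel of KCNQ1 pores with KCNE1 accessory subunits. It enters them from the basolateral side through the Na-K-Cl cotransporter encoded by *Slc12a2* and through the Na,K-ATPase, while chloride leaves again through channels that need the subunit barttin, encoded by *Bsnd*. Upstream of this step, KCNJ10 channels of the melanocyte-derived intermediate cells release potassium into the narrow space inside the stria. Loss of any of the apical channel subunits, the cotransporter, barttin or KCNJ10 is known to impair hearing. In a whole cochlear duct *Slc12a2*, *Kcnj10* and the Na,K-ATPase genes are also expressed outside the stria, for example in fibrocytes, supporting cells and glia.

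Levels are given as normalized reads, which are whole reads counted on a gene divided by 1 size factor per library. The libraries held between 13603908 and 19359753 counted reads, and the 7 genes together took between 0.334% and 0.368% of them. *Gfi1*+/+ replicate 1 stood apart from the other libraries, with 10926 normalized reads summed over a list of 10 neuron marker genes, against between 2762 and 4737 in the other 5 libraries. Genotype could not be told apart from the number of mice per library, or from sex, since the study infers mainly male pups for *Gfi1*cre/+ and mainly female pups for *Gfi1*+/+. Since the RNA is from bulk tissue, fewer cells of a type and less RNA per cell cannot be told apart.

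All 7 genes were well expressed, with between 791 reads (*Bsnd*) and 23438 reads (*Atp1b2*) behind a single value. To compare genes, their normalized reads were divided by the length of their merged exons. On this scale *Atp1b2* was the most abundant of the 7, with 4841 ± 438 normalized reads per kilobase in *Gfi1*+/+ and 5081 ± 143 in *Gfi1*cre/+ (SD, n = 3), which placed it at rank 149 of the 14791 genes with a known length. *Kcne1* and *Atp1b1* came next and could not be ordered, since *Kcne1* was above *Atp1b1* in 2 of the 6 libraries and their means over all libraries were 2498 and 2489 normalized reads per kilobase. *Slc12a2* followed with 1427 ± 70.7 in *Gfi1*+/+ and 1482 ± 65.1 in *Gfi1*cre/+. *Kcnq1* (819 ± 19.1 and 873 ± 24.4) lay above *Kcnj10* (701 ± 110 and 690 ± 16.7) in each of the 6 libraries, by a factor of between 1.02 and 1.38, although the ranges of these neighbours over all libraries overlapped. *Bsnd* was the least abundant, with 370 ± 21.7 and 396 ± 6.15 normalized reads per kilobase. The ranges of the other neighbours in this order did not overlap. With the longest transcript in place of the merged exons, *Kcne1* was below *Atp1b1* in all 6 libraries and above *Slc12a2* in 5 of 6, with overlapping ranges, and the other pairs kept their order in every library.

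**Figure D1:**
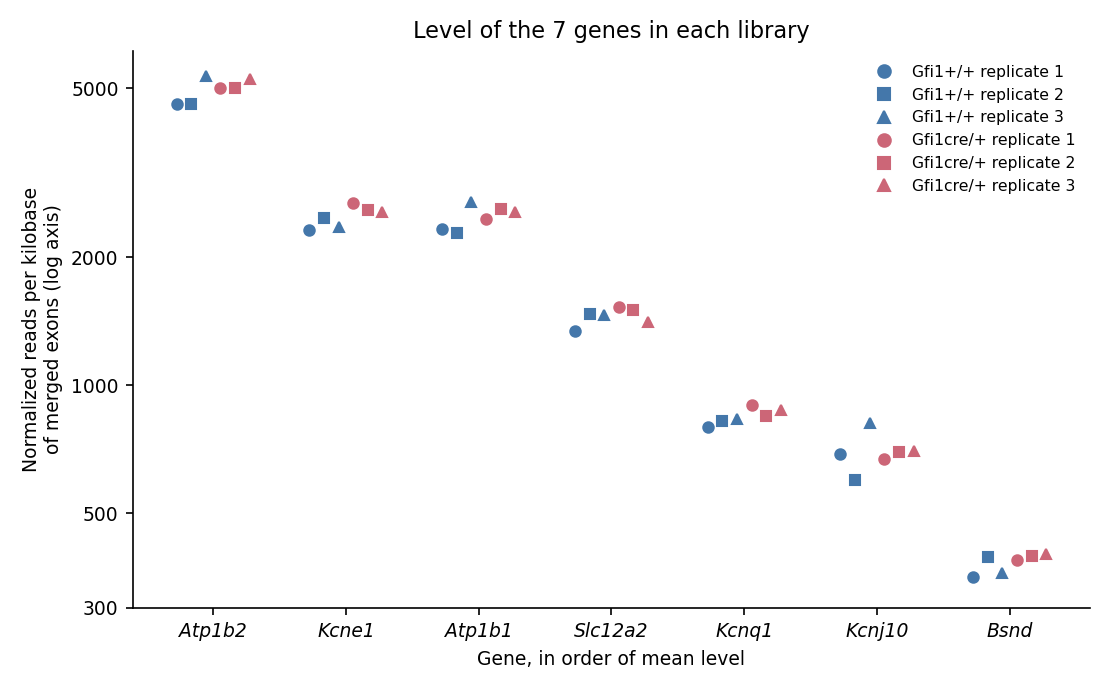
Normalized reads per kilobase of merged exons (log axis) of the 7 genes in each of the 6 libraries, 1 point per library, with genes in order of their mean. The libraries of a gene lie close together compared with the distance from *Atp1b2*, at between 4584 and 5346, to *Bsnd*, at between 354 and 402.

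The apical channel was described by *Kcnq1*, the pore, and *Kcne1*, the accessory subunit that slows its gating. *Kcnq1* (ENSMUSG00000009545, chr7:143106362-143427042 of GRCm38, plus strand) measured 3266 (replicate 1), 3375 (replicate 2) and 3418 (replicate 3) normalized reads for *Gfi1*+/+, and 3673, 3474 and 3578 in the same order of replicates for *Gfi1*cre/+. Each *Gfi1*cre/+ library was above each *Gfi1*+/+ library, which gives p = 0.1 in a two-sided exact permutation test, the smallest value possible with 3 libraries per genotype. On the log2(normalized reads + 1) scale the difference was 0.09 (standard error 0.0514, 95% confidence interval -0.024 to 0.21), with an unadjusted p of 0.106 and an adjusted p of 0.999 in limma's test. The long antisense RNA *Kcnq1ot1* lies inside *Kcnq1* on the opposite strand and shares 121 of the 4093 bases of its merged exons. The library kit does not mark strand, so reads in those bases could not be assigned to either gene. *Kcnq1ot1* had 161 ± 21.6 normalized reads in *Gfi1*+/+ and 165 ± 17.8 in *Gfi1*cre/+ (SD, n = 3), far fewer than *Kcnq1*.

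*Kcne1* (ENSMUSG00000039639, chr16:92345982-92359468, minus strand) had 7455, 7963 and 7585 normalized reads in the *Gfi1*+/+ replicates and 8620, 8322 and 8224 in the *Gfi1*cre/+ replicates. As for *Kcnq1*, the genotypes were apart (p = 0.1 in the exact permutation test, again the smallest possible), and *Gfi1*cre/+ replicate 1 was the highest library for both genes while *Gfi1*+/+ replicate 1 was the lowest. The log2 difference of *Kcne1* was 0.13 (standard error 0.0559, 95% confidence interval 0.0035 to 0.26). Its unadjusted p of 0.0452 in limma's test was the lowest of the 7 genes and the single value under 0.05. Its adjusted p was 0.999 in limma's test with Benjamini-Hochberg adjustment over 14455 genes. Without *Gfi1*+/+ replicate 1 the difference was 0.11 (unadjusted p = 0.108 in limma's test), and with each library left out in turn it stayed between 0.11 and 0.16.

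Per kilobase, *Kcne1* transcripts outnumbered *Kcnq1* transcripts in every library, by 2.91, 3.005 and 2.83 to 1 in the *Gfi1*+/+ replicates and by 2.99, 3.05 and 2.93 to 1 in the *Gfi1*cre/+ replicates. The ratio thus spanned 1.08-fold from the lowest to the highest library, and its genotypes overlapped (log2 difference 0.04, exact permutation test, two-sided p = 0.3). Its SD over the 6 libraries was 0.0395 on the log2 scale, where counting error alone gives 0.0292. The size of the ratio depended on the transcript models, since *Kcnq1* has exons outside its longest transcript. With the longest transcript as the length it lay between 2.12 and 2.29 to 1.

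*Bsnd* (ENSMUSG00000025418, chr4:106483456-106492283, minus strand) encodes barttin, the subunit that basolateral chloride channels need to reach the membrane. It had 976, 1089 and 997 normalized reads in the *Gfi1*+/+ replicates and 1073, 1094 and 1107 in the *Gfi1*cre/+ replicates. The genotypes overlapped because *Gfi1*+/+ replicate 2 was above *Gfi1*cre/+ replicate 1, whereas the other *Gfi1*+/+ libraries were below all *Gfi1*cre/+ libraries. The log2 difference was 0.10 (95% confidence interval -0.038 to 0.23, unadjusted p = 0.138 and adjusted p = 0.999 in limma's test).

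*Slc12a2* (ENSMUSG00000024597, chromosome 18, plus strand) encodes NKCC1, the cotransporter that loads marginal cells with sodium, potassium and chloride. It had 14696, 16076 and 15988 normalized reads in the *Gfi1*+/+ replicates and 16724, 16451 and 15380 in the *Gfi1*cre/+ replicates. The lowest library was *Gfi1*+/+ replicate 1, but *Gfi1*cre/+ replicate 3 was below the other *Gfi1*+/+ libraries, so the genotypes overlapped. The log2 difference was 0.05 (95% confidence interval -0.099 to 0.21, unadjusted p = 0.442 and adjusted p = 0.999 in limma's test). With single libraries left out it ran from 0.013, without *Gfi1*+/+ replicate 1, to 0.091, without *Gfi1*cre/+ replicate 3. Among the kinases that act on this cotransporter, *Stk39* (SPAK) had 2333 ± 278 normalized reads in *Gfi1*+/+ and 2346 ± 129 in *Gfi1*cre/+ (SD, n = 3), and *Oxsr1* had 773 ± 10.6 and 782 ± 41.4.

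The Na,K-ATPase, which exchanges sodium for potassium at the basolateral membrane, is built from a catalytic and a glycosylated beta subunit. *Atp1b1* (ENSMUSG00000026576, chr1:164437109-164458355, minus strand) had 7186, 7015 and 8319 normalized reads in the *Gfi1*+/+ replicates and 7588, 8013 and 7893 in the *Gfi1*cre/+ replicates. *Atp1b2* (ENSMUSG00000041329, chr11:69599736-69605942, minus strand) had 18758, 18727 and 21838 in the *Gfi1*+/+ replicates and 20399, 20439 and 21433 in the *Gfi1*cre/+ replicates. Both genes had the same outline, with *Gfi1*+/+ replicate 3 as the highest library and the other *Gfi1*+/+ libraries as the lowest, so that the *Gfi1*cre/+ values lay inside the *Gfi1*+/+ range. The log2 difference was 0.06 for *Atp1b1* (95% confidence interval -0.10 to 0.23, unadjusted p = 0.401 and adjusted p = 0.999 in limma's test). That of *Atp1b2* was 0.07 (95% confidence interval -0.10 to 0.25, unadjusted p = 0.376 and adjusted p = 0.999 in limma's test). Single libraries moved these differences, which were 0.035 for *Atp1b1* and 0.037 for *Atp1b2* without *Gfi1*+/+ replicate 1, 0.018 and 0.036 without *Gfi1*+/+ replicate 2, and 0.14 and 0.15 without *Gfi1*+/+ replicate 3. The 3' ends of *Atp1b1* and of *Nme7* on the opposite strand overlap over 575 of the 3081 bases of the merged exons of *Atp1b1*, where reads could not be assigned to either gene.

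The ratio of *Atp1b1* to *Atp1b2* was the steadiest of the ratios given, at 0.508, 0.497 and 0.505 per kilobase in the *Gfi1*+/+ replicates and 0.493, 0.520 and 0.488 in the *Gfi1*cre/+ replicates. It spanned 1.06-fold over the 6 libraries, whereas *Atp1b1* itself spanned 1.19-fold among the *Gfi1*+/+ libraries and *Atp1b2* 1.17-fold. Its SD over the 6 libraries was 0.0328 on the log2 scale, where counting error alone gives 0.0188, less than for *Kcne1* to *Kcnq1* (0.0292). The ratio did not differ between genotypes beyond this spread (log2 difference -0.0086, exact permutation test, two-sided p = 0.8). Summed over *Atp1b1*, *Atp1b2* and *Atp1b3*, a sum chosen after the values had been seen, *Atp1b2* made up between 56.2% and 57.5% of beta subunit transcripts per kilobase in every library, *Atp1b1* between 27.9% and 29.4%, and *Atp1b3* between 14.1% and 15.4%. These shares depend on the lengths used. With the longest transcript as the length, the ratio of *Atp1b1* to *Atp1b2* lay between 0.535 and 0.570. The effect of the bases that *Atp1b1* shares with *Nme7* was not tested.

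*Kcnj10* (ENSMUSG00000044708, chr1:172341210-172374085, plus strand), which encodes the inward rectifier Kir4.1, had 3725, 3236 and 4415 normalized reads in the *Gfi1*+/+ replicates and 3628, 3763 and 3801 in the *Gfi1*cre/+ replicates. The *Gfi1*+/+ libraries held both the lowest and the highest value of all 6, and the *Gfi1*cre/+ libraries lay between them. The spread among the *Gfi1*+/+ libraries was 0.224 on the log2 scale (SD, n = 3), the widest of the 7 genes, and 0.0352 among the *Gfi1*cre/+ libraries, where the medians over all genes tested were 0.119 and 0.0737. The log2 difference was -0.012 (95% confidence interval -0.24 to 0.21, unadjusted p = 0.904 and adjusted p = 0.999 in limma's test), an interval that runs from 0.848 to 1.16 as a fold. The sign of this difference turned when *Gfi1*+/+ replicate 3 was left out (0.10) or when *Gfi1*cre/+ replicate 1 was (0.0076).

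*Kcnj16* encodes Kir5.1, which can form channels with Kir4.1 and is found in fibrocytes and spindle cells of the lateral wall. It varied more than *Kcnj10* in the same libraries, with 1779, 1320 and 2656 normalized reads in the *Gfi1*+/+ replicates and between 1869 and 1954 in the *Gfi1*cre/+ replicates. Per kilobase, the ratio of *Kcnj10* to *Kcnj16* was therefore lowest in *Gfi1*+/+ replicate 3 (1.21), highest in *Gfi1*+/+ replicate 2 (1.78) and almost the same in the *Gfi1*cre/+ replicates (1.41, 1.42 and 1.42). The genotypes did not differ beyond the *Gfi1*+/+ spread (exact permutation test, two-sided p = 0.7).

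The 250 bases before the start sites of *Kcnj10* and *Atp1b1* are shown side by side, from the RefSeq promoter table of GRCm38.p6. They are shown because this table held no entry for the other members, *Kcnq1*, *Kcne1*, *Slc12a2*, *Atp1b2* and *Bsnd*. Like *Atp1b2*, both genes were highest in *Gfi1*+/+ replicate 3 and lowest in *Gfi1*+/+ replicate 2. Whether the sequences bear on this pattern was not tested. The *Kcnj10* promoter is chr1:172340960-172341209 on the plus strand and the *Atp1b1* promoter is chr1:164458356-164458605 on the minus strand, and capitals mark matches, on either strand, to the GC box (GGGCGG), the CCAAT box (CCAAT) and the letters TATATA.
Kcnj10: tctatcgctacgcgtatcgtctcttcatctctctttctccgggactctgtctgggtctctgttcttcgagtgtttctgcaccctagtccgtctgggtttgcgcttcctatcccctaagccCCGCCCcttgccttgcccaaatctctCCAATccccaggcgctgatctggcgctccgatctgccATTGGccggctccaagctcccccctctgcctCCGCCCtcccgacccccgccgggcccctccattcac
Atp1b1: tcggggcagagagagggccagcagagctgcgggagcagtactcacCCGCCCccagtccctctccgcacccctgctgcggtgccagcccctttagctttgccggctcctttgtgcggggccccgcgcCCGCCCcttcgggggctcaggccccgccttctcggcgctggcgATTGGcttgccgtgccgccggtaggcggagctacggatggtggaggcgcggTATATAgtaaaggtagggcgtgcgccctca
Each promoter held 2 GC boxes, which 32.7% of the 32851 promoters of the same length held at least once. The CCAAT box, present in 33.8% of all promoters, occurred 2 times before *Kcnj10*, at 104 and 67 bases upstream of the start site, and 1 time before *Atp1b1*, at 81 bases upstream. The letters TATATA, which were added to the search after the sequences had been read and occur in 5.25% of all promoters, lay 30 bases upstream of the start of *Atp1b1* and were not found before *Kcnj10*. Neither window matched the TATA box (TATAA, in 22.8% of promoters), the binding motif of estrogen-related receptors such as ESRRB (AAGGTCA, 4.08%) or the E-boxes CATGTG (12.3%) and CACGTG (6.02%). GC made up 62.0% of the *Kcnj10* window and 70.4% of the *Atp1b1* window, with a median of 52.4% over all promoters.

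**Figure D2:**
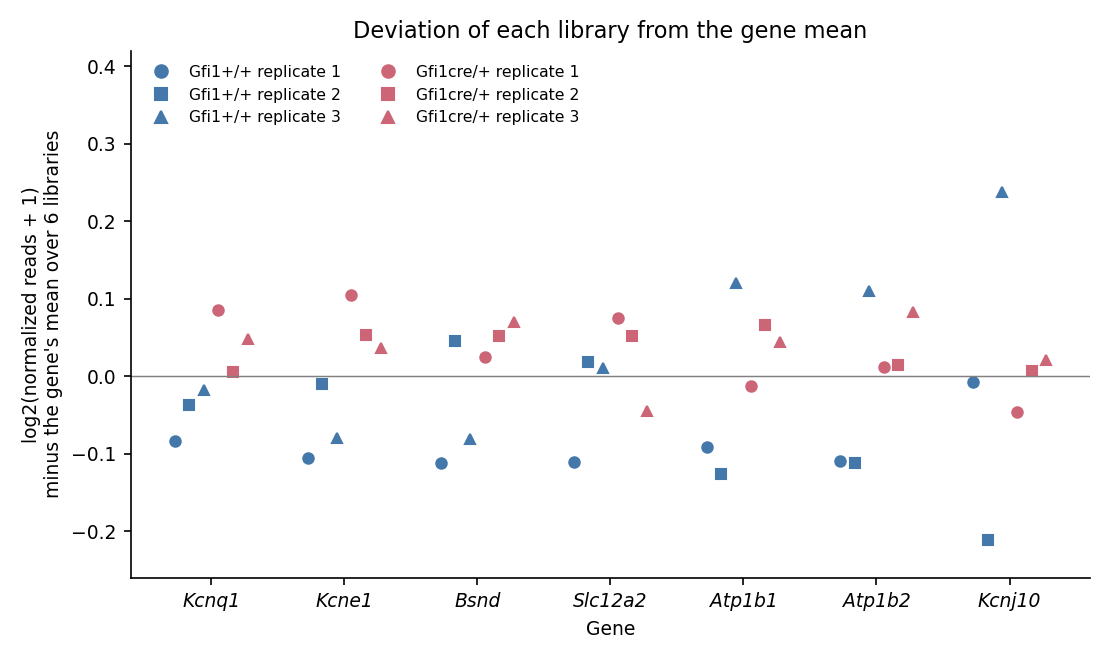
Deviation of log2(normalized reads + 1) in each library from the mean of the gene over the 6 libraries, 1 point per library. *Gfi1*+/+ replicate 3 is the highest library for *Atp1b1*, *Atp1b2* and *Kcnj10*, at between 0.11 and 0.24, and lies below every *Gfi1*cre/+ library for *Kcnq1*, *Kcne1* and *Bsnd*.

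Over the 7 genes, the *Gfi1*+/+ libraries thus followed 2 outlines. For *Kcnq1*, *Kcne1* and *Bsnd*, *Gfi1*+/+ replicates 1 and 3 were both below all *Gfi1*cre/+ libraries, whereas for *Atp1b1*, *Atp1b2* and *Kcnj10*, *Gfi1*+/+ replicate 3 was above them all. *Slc12a2* differed from both, with *Gfi1*+/+ replicates 2 and 3 within the *Gfi1*cre/+ range. The summed level of the 7 genes was 56064, 57480 and 62560 normalized reads in the *Gfi1*+/+ replicates and 61706, 61555 and 61415 in the *Gfi1*cre/+ replicates, so *Gfi1*+/+ replicate 3 again lay above every *Gfi1*cre/+ library.

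All 7 genes passed the minimum for testing. Of these, 1 (*Kcne1*, higher in *Gfi1*cre/+) had an unadjusted p under 0.05 in limma's test, where 3.04% of the 14455 genes tested had one and 1.02% were higher with one, and none had an adjusted p under 0.05, where 0.0277% did. The genotypes did not overlap in 2 of the 7 genes (*Kcnq1* and *Kcne1*), against 7.52% of all genes tested and 3.45% in the same direction. The log2 difference was above 0 in 6 of the 7 genes, against 49.9% of all genes, and the median over the 7 genes was 0.07, against -0.00012 over all genes tested. The number of genes with an unadjusted p under 0.05 rested on single libraries. It was 0 without *Gfi1*+/+ replicate 1 (2.1% of all genes tested) and without *Gfi1*cre/+ replicate 1 (2.17%), 2 (1.49%) or 3 (1.72%). It was 2 without *Gfi1*+/+ replicate 2 (*Kcne1* and *Bsnd*, 3.78% of all genes) and 3 without *Gfi1*+/+ replicate 3 (*Kcne1*, *Atp1b1* and *Atp1b2*), where 16.2% of all genes tested had such a p. The median over the 7 genes ran from 0.04, with *Gfi1*+/+ replicate 1 left out, to 0.11, with *Gfi1*+/+ replicate 3 left out.

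**Figure D3:**
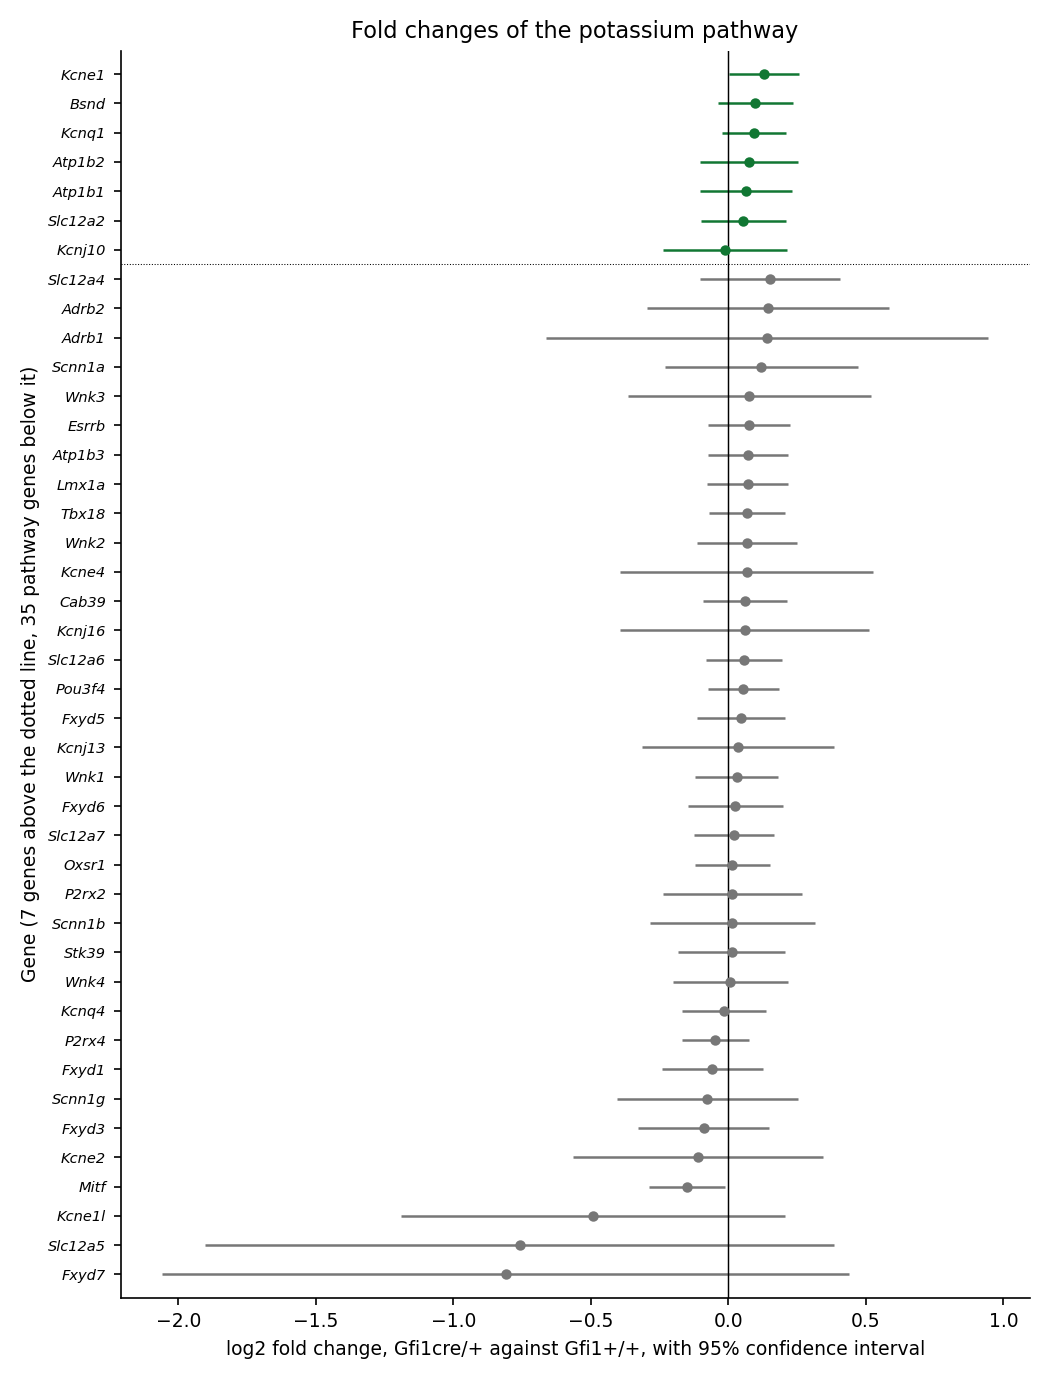
Log2 fold change of *Gfi1*cre/+ against *Gfi1*+/+ with its 95% confidence interval from limma, for the 7 genes (above the dotted line) and for 35 other genes of the potassium pathway (below it). The interval of *Kcne1* starts just above 0 at 0.0035, and those of the other 6 genes include 0.

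In all, 3 ratios between partner genes are given, and in none of them did the genotypes separate. The exact permutation p lay between 0.3 and 0.8 (two-sided, smallest possible p = 0.1). A ratio of genes within a library does not depend on the size factor of that library. From the lowest to the highest of the 6 libraries, the ratio of *Atp1b1* to *Atp1b2* spanned 1.06-fold and that of *Kcne1* to *Kcnq1* 1.08-fold, whereas that of *Kcnj10* to *Kcnj16* spanned 1.47-fold.

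**Figure D4:**
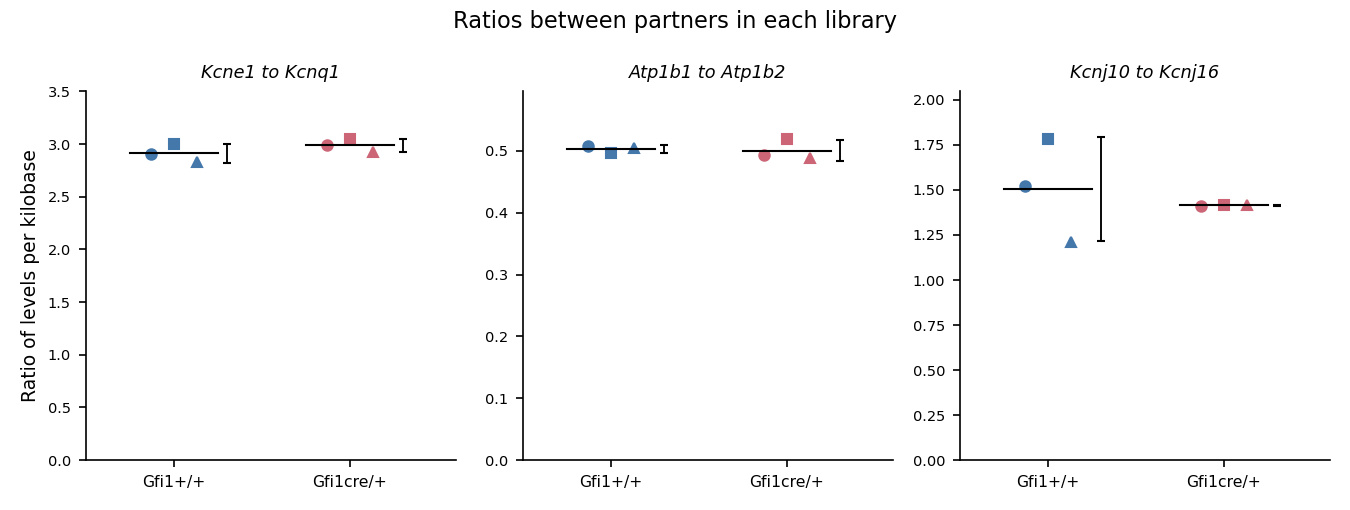
Ratios of levels per kilobase of merged exons for 3 pairs of genes, 1 point per library, with the mean (horizontal line) and SD (bar, n = 3) of each genotype, on axes that start at 0. The genotypes overlap in every panel, and the points of *Kcnj10* to *Kcnj16* are spread most, from 1.21 to 1.78.

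The rest of the potassium pathway was followed in a list of 44 genes, of which 40 were in the table and were tested. None of them was higher in *Gfi1*cre/+ at an unadjusted p under 0.05 and 2 were lower, among them *Mitf*, where 1.02% of all genes tested were higher and 3.04% passed in either direction, and none had an adjusted p under 0.05 in limma's test. Their median log2 difference was 0.03, against -0.00012 over all genes tested, and 29 of the 40 were above 0, against 49.9% of all genes tested. *Mitf*, the transcription factor of melanocytes, had 832 ± 33.2 normalized reads in *Gfi1*+/+ and 750 ± 32.5 in *Gfi1*cre/+ (SD, n = 3), with every *Gfi1*cre/+ library below every *Gfi1*+/+ library (log2 difference -0.15, unadjusted p = 0.0375 and adjusted p = 0.999 in limma's test). *Esrrb*, which encodes a nuclear receptor needed for strial ion transport genes, had 5993 ± 407 and 6308 ± 274 normalized reads. The number of pathway genes with an unadjusted p under 0.05 was between 0 and 14 with single libraries left out, and the share of all genes tested was 16.2% without *Gfi1*+/+ replicate 3 and between 1.49% and 3.78% without any other library. Leaving out *Gfi1*+/+ replicate 3 gave 14 genes, *Gfi1*+/+ replicate 1, *Gfi1*+/+ replicate 2 or *Gfi1*cre/+ replicate 2 gave 1, *Gfi1*cre/+ replicate 1 gave 0 and *Gfi1*cre/+ replicate 3 gave 2.

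Markers of the cells that carry the machinery were present in every library. The 10 marginal cell markers, among them *Esrrb*, *Lmx1a* and *Abcg1*, summed to between 14454 and 17046 normalized reads in *Gfi1*+/+ and between 16027 and 16616 in *Gfi1*cre/+. All 10 had a log2 difference above 0 (median 0.08, 3 of the 10 also on the pathway list), where 49.9% of all genes tested did. None had an unadjusted p under 0.05. Averaged over the list, the log2 deviation from each gene's mean was -0.11, -0.070 and 0.063 in the *Gfi1*+/+ replicates. It was 0.092, 0.0095 and 0.018 in the *Gfi1*cre/+ replicates, so *Gfi1*+/+ replicate 3 lay above *Gfi1*cre/+ replicates 2 and 3. Of the 12 intermediate cell markers, 11 were in the table, with *Dct* at 17340 ± 603 normalized reads in *Gfi1*+/+ and 17467 ± 494 in *Gfi1*cre/+ (SD, n = 3). Of these 11, 4 had a log2 difference above 0, *Dct* (0.01) among them, and 7 below, where 49.9% of all genes tested were above 0. The median over the 11 was -0.08. *Mitf* was the one with an unadjusted p under 0.05, where 3.04% of all genes tested had one. The 6 basal cell markers, with *Cldn11* as the most abundant, had a median log2 difference of 0.04.

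Lists of markers of neurons, glia, erythroid cells and bone differed widely between libraries. Over all genes tested, 3.04% had an unadjusted p under 0.05 in limma's test and 1.02% were higher in *Gfi1*cre/+ with one. In the neuron list all 10 genes were lower in *Gfi1*cre/+ on average (median log2 difference -1.003, 5 with an unadjusted p under 0.05, namely *Nefm* at -1.68, *Nefh* at -1.37, *Stmn2* at -1.31, *Snap25* at -1.22 and *Syt1* at -0.24). Its sum ran from 3271 to 10926 normalized reads in *Gfi1*+/+ and from 2762 to 3670 in *Gfi1*cre/+. The 8 glia markers summed to between 17924 and 36519 in *Gfi1*+/+ and between 13266 and 22798 in *Gfi1*cre/+, with a median log2 difference of -0.30. The 7 erythroid markers in the table were all higher in *Gfi1*cre/+ with an unadjusted p under 0.05, with log2 differences such as those of *Slc4a1* (2.53), *Hba-a1* (0.60), *Alas2* (0.57) and *Hbb-bt* (0.56), and summed to between 29477 and 43831 in *Gfi1*+/+ and between 38327 and 66358 in *Gfi1*cre/+. The globin genes among them have near-identical copies, so their single values are uncertain. The 8 bone markers ran from 33785 to 59446 in *Gfi1*+/+, with the highest sum in *Gfi1*+/+ replicate 3, and from 48468 to 52486 in *Gfi1*cre/+ (median log2 difference 0.27, *Mepe* at 0.46 and *Spp1* at 0.14 with an unadjusted p under 0.05). The part of these cells in the values of the 7 genes was not tested. No listed marker in the table had a value of 0 in any library, and listed markers that are missing from it could not be checked.

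By their median log2 difference the remaining lists were closer between genotypes. The 8 hair cell markers had a median of -0.15, with *Pvalb* lower in *Gfi1*cre/+ (-0.47, unadjusted p = 0.00630 in limma's test). Of the 8, 1 had a log2 difference above 0 and 7 below, where 49.9% of all genes tested were above 0. Their sum did not overlap between genotypes, at between 4637 and 4820 normalized reads in *Gfi1*+/+ and between 4145 and 4504 in *Gfi1*cre/+. The median was 0.06 for the 8 fibrocyte markers, -0.028 for the 7 supporting cell markers in the table, 0.02 for the 8 macrophage markers, 0.08 for the 8 endothelial and pericyte markers and 0.07 for the 6 spindle and root cell markers. Other members of these lists with an unadjusted p under 0.05 were *Pecam1* (0.17) and *Tek* (0.18), endothelial receptors, and *Slc26a4* (0.22), the anion exchanger pendrin of spindle cells. Of all genes tested, 3.04% had such a p and 1.02% were higher with one. None of the listed markers had an adjusted p under 0.05 in limma's test.

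**Figure D5:**
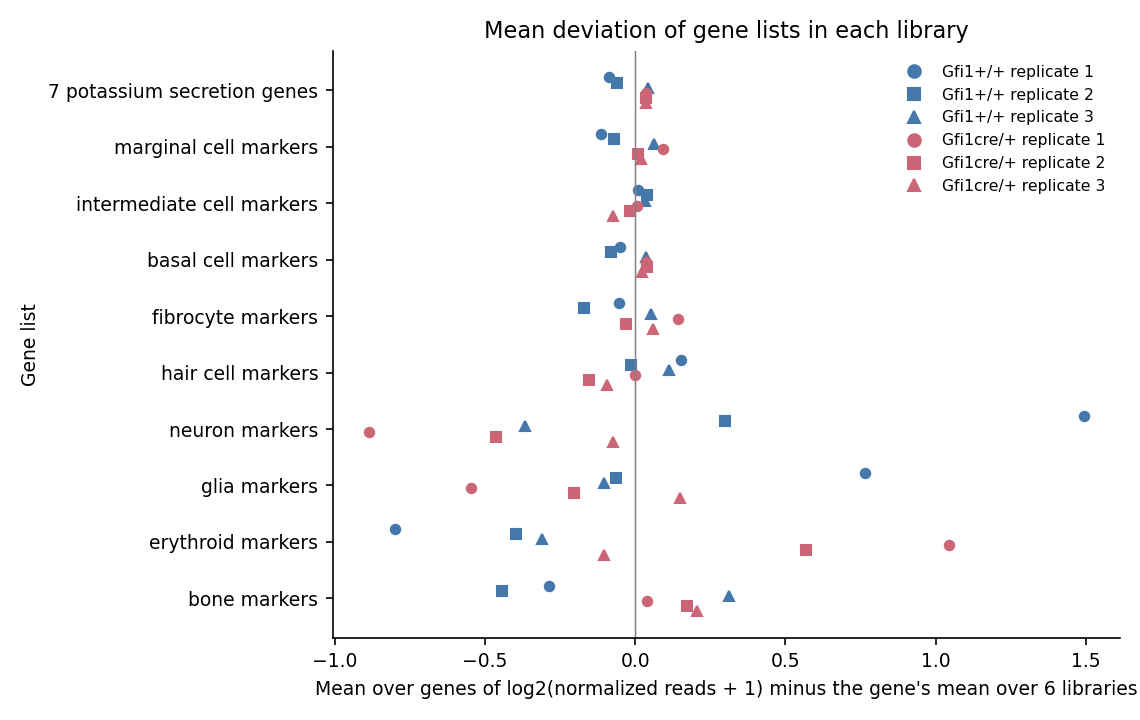
Mean over the genes of a list of the deviation of log2(normalized reads + 1) from the gene's mean over the 6 libraries, 1 point per library. The 7 potassium secretion genes lie between -0.088 and 0.043, whereas the neuron list reaches 1.49 in *Gfi1*+/+ replicate 1.

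The genes whose levels over the 6 libraries were most like the mean profile of the 7 genes were, among 10358 genes that reached 200 normalized reads on average, *Mob3c* (Pearson's r = 0.993), *Smg9* (0.990), *Cnot3* (0.988), the unnamed ENSMUSG00000097394 (0.988) and *Abcg1* (0.986). These coefficients are a description over 6 libraries of 2 genotypes that share their size factors with the 7 genes. The likeness lay in low values in *Gfi1*+/+ replicates 1 and 2, and higher, even values in *Gfi1*+/+ replicate 3 and in *Gfi1*cre/+. Not all of the 7 genes followed this mean profile. For *Kcnq1*, *Kcne1* and *Bsnd*, *Gfi1*+/+ replicate 3 was below every *Gfi1*cre/+ library, and *Kcnj10* correlated with *Bsnd* at -0.499. *Abcg1*, a cholesterol transporter that is also on the marginal cell list, had 816, 864 and 896 normalized reads in the *Gfi1*+/+ replicates and 911, 905 and 911 in the *Gfi1*cre/+ replicates.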

How the data were processed

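The authors aligned reads to mm10 with TopHat, counted uniquely mapped reads on genes with HTSeq and left out genes with fewer than 40 reads. The annotation, strand setting and versions are not given in the sources used here. The deposited signal values, described by the authors as quantile-normalized, were whole reads divided by 1 factor per library for at least 99.9865% of values in each library (tolerance 0.005), with 13603908 to 19359753 reads per library. The 14455 of 14865 genes that reached 40 normalized reads in any library were compared with limma (version 3.58.1, R 4.3.3) on log2(value + 1), as a two-sided test with trended eBayes variances and p-values adjusted by Benjamini-Hochberg. This scale understates changes of low genes. P-values for single values and ratios came from exact permutation tests. edgeR (4.0.16) and DESeq2 (1.42.0) on the recovered reads were alternatives. Lengths and positions came from GENCODE M21 (GRCm38), to which 14791 identifiers matched. The fit was tested on simulated counts with 2-fold changes in 200 genes, of which 199 were recovered with 16 false calls. Changes as small as those of the 7 genes were not simulated, nor was a library that stands apart. The simulated spread beyond counting error was set alike for all genes and both genotypes. In the data the median log2 SD over all genes tested was 0.119 in *Gfi1*+/+ and 0.0737 in *Gfi1*cre/+. Genes named were the 7 genes, their ratio partners, listed genes with an unadjusted p under 0.05 (at most 5 per list, by size of change) and the 5 genes of most similar profile. *Dct*, *Cldn11*, *Lmx1a*, *Esrrb*, *Stk39*, *Oxsr1*, *Atp1b3* and genes that overlap a named gene were named beside these after their values were seen. Some genes under this rule, and ratios with them, are not reported here, although list counts and sums include them. The members and lists were chosen with earlier results of these data known. The genotype and replicate number in a column's name gave its sample.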

Additional observations from a re-analysis of the deposited data

How the results depend on the processing

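Over all alternatives run, the log2 differences of *Kcnq1*, *Kcne1*, *Slc12a2*, *Atp1b1*, *Atp1b2* and *Bsnd* stayed above 0 and no member had an adjusted p under 0.05 in any test. Without single libraries *Kcnj10* ran from -0.12 to 0.10, and with array weights it was 0.11. The number of the 7 genes with an unadjusted p under 0.05 was 0 without a trend (3.57% of all genes tested), with robust variances (2.8%), after quantile normalization (3.01%), with the replicate block (3.2%) and in edgeR (3.64%), and 0 to 3 without single libraries. With array weights it was also 1, with *Atp1b1* (unadjusted p of 0.0492 in limma's test) in place of *Kcne1* (unadjusted p of 0.0687). For the 40 pathway genes it was 0 without a trend, 1 with robust variances, 1 with the replicate block, 5 with array weights (11.5% of all genes tested) and 0 to 14 without single libraries. For all genes it was 229 at a mean of at least 200, 1666 with array weights and 216 to 2340 without single libraries, and at an adjusted p under 0.05 it was 4 in the main comparison, 0 at a mean of at least 200, 10 in DESeq2 and 0 to 48 without single libraries. The split of 147 higher and 292 lower genes became 205 and 230 after quantile normalization, 147 and 379 in edgeR, and 85 and 290 in DESeq2. The number of the 7 genes whose genotypes did not overlap was 2 to 4 without single libraries, where 13.5% to 34.5% of all genes did not overlap. The log2 difference of ratios without single libraries ran from 0.016 to 0.060 for *Kcne1* to *Kcnq1*, -0.036 to 0.0089 for *Atp1b1* to *Atp1b2* and -0.22 to 0.060 for *Kcnj10* to *Kcnj16*. The cause of these changes was not tested. Deviations of same-numbered libraries correlated at -0.0944, 0.107 and -0.0326, and those of differently numbered libraries at between -0.156 and 0.15. These values showed no pairing by number, but with 3 libraries per genotype they could not settle whether the samples were paired. The block gave 462 genes with an unadjusted p under 0.05 in limma's test against 439 without it. With 3 libraries against 3, a ratio could not reach p under 0.1, and with 3 pairs not under 0.25.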
